A study of Homo sapiens with 24 samples.

Results

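The genes described here are 10 members of the NOD receptor and inflammasome pathways, followed through 6 treatment groups of HT29 cells: the receptors NOD1 and NOD2, their kinase RIPK2, the inflammatory caspases CASP1, CASP4 and CASP5, the adaptor PYCARD, and the cytokines IL18, IL1B and IL1A. They were chosen by name, and every non-control probe of the array annotated with 1 of these names was taken. This gave 10 of 36337 annotated names, 10 of 50599 probes and 37 of 58717 spots. Each gene had 1 probe, printed 10 times on the array for IL18, IL1B and IL1A and 1 time for the other genes.

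HT29 is an established human colon adenocarcinoma line. RNA was measured on 24 single-colour arrays, 4 for each of 6 groups. Cells were left untreated (NT) or were treated for 6 h. C3/C2 was a mixture of 30 mM propionate and 15 mM acetate, the major short-chain fatty acids made by the dairy bacterium Propionibacterium freudenreichii. SN was the supernatant of a culture of that bacterium, diluted 2-fold. TRAIL, a death ligand of the TNF family, was given at 100 ng/ml in a Flag-tagged form together with 2 µg/ml of the anti-Flag M2 antibody. TRAIL+C3/C2 and TRAIL+SN combined TRAIL and its antibody with either of these treatments. All groups came from this 1 cancer line, the antibody was given in the 3 TRAIL groups, and the sources used here describe no antibody-only or medium-only group. The study describes 2 independent experiments done in duplicate. The labels do not name separate cultures for the replicates, and the tests took the 4 arrays of a group as independent. The p-values therefore measure the spread between these samples, which may be partly technical.

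NOD1 and NOD2 are cytosolic sensors of fragments of bacterial peptidoglycan, and both act through the kinase RIPK2 to switch on NF-kB target genes. Inflammasomes are protein platforms in which a sensor recruits the adaptor PYCARD (also called ASC) and activates CASP1, which cuts the IL1B and IL18 precursors into their secreted forms. CASP4 and CASP5 bind bacterial lipopolysaccharide directly and cut the pore-forming protein gasdermin D. IL1A signals through the same receptor as IL1B but needs no CASP1 cut, and colon epithelium is known to hold IL18 at rest. The arrays measured transcripts only, so cleavage and secretion are outside these data.

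The largest differences among these genes were those of IL1A and IL1B, and CASP5 fell furthest, so the stretches before their start sites are shown, with that of CASP4, a relative of CASP5 on the same chromosome. RefSeq promoter windows (GRCh38.p14) were held for 7 of the 10 genes, and not for IL18, CASP1 and RIPK2. Each line gives the 250 bases before the annotated start, 5′ to 3′ on the gene's strand, which is the minus strand for all 4: chr2:112784401-112784650 for IL1A (the downstream one of 2 annotated starts, shown because its window holds both AP-1 matches), chr2:112836780-112837029 for IL1B, chr11:105023169-105023418 for CASP5 and chr11:104968575-104968824 for CASP4. Capitals mark matches on either strand to a loose kB pattern (GGANNNNCC), to the AP-1 pattern TGANTCA or to a loose C/EBP pattern (TTNNGNAA), and no matches overlapped each other.
IL1A: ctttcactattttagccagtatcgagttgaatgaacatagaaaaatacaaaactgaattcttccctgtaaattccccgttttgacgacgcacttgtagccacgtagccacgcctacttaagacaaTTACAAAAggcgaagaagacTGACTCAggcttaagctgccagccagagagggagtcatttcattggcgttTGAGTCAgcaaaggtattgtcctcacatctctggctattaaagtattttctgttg
IL1B: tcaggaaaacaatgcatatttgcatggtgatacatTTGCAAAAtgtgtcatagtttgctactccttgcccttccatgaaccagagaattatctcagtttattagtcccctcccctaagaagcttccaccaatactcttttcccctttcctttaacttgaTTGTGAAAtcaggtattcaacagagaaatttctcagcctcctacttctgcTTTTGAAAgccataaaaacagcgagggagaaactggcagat
CASP5: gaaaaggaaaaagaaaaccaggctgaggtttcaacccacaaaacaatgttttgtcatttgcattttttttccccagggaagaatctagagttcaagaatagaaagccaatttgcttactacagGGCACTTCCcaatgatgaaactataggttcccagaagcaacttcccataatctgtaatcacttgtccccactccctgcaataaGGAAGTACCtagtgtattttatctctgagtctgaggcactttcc
CASP4: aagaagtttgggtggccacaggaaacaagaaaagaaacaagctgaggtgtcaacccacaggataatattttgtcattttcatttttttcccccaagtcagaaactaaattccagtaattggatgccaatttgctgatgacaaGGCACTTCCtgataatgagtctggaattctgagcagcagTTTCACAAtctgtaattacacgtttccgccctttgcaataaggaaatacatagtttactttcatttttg

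The IL1A window held 2 AP-1 matches, TGACTCA at 105 to 99 bases and TGAGTCA at 55 to 49 bases before the start, and 1 match to the C/EBP pattern. The IL1B window held 3 matches to the C/EBP pattern, and the CASP5 window held 2 kB matches. In CASP4 there was 1 kB match, GGCACTTCC, the same 9 letters as the upstream match of CASP5, and 1 match to the C/EBP pattern. Over the 35116 RefSeq promoters the shares with 1 or more matches in the same 250 bases were 6.57% for AP-1, 33.2% for the C/EBP pattern and 47.7% for the kB pattern. In a global alignment the CASP4 and CASP5 windows were identical in 180 of 270 columns (66.7%), against 123 of 268 (45.9%) for IL1A and IL1B. The matches are letters in these windows and were not tested for binding.

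Levels are given as the log2 of the spot signal minus the log2 of the array's 75th percentile of signal, so that 0 is a spot as bright as that percentile and each unit is a factor of 2. They compare 1 probe between groups and not 1 gene with another. The 75th percentile of signal ran from 745 to 1009 intensity units in NT and from 453 to 518 in TRAIL+C3/C2, 49.8% to 57.8% of probes were well above background, and no spot was saturated. The lowest correlation between arrays of the same group was 0.993. The arrays lay on 4 slides: NT and C3/C2 shared the first and the second, all SN and TRAIL arrays were on the third, and both co-treatments were on the fourth. Slide and treatment therefore cannot be told apart for SN, TRAIL and the co-treatments against NT, for SN against C3/C2 or for the interactions of TRAIL with either treatment.

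NOD1, RIPK2, CASP4, CASP5, PYCARD and IL18 were well above background on all 24 arrays, IL1B on 18 and IL1A on 13. NOD2 was so on 1 array and CASP1 on 0 of 24 arrays. The plot of levels on every array shows the 10 genes on 1 scale. A gene was tested where its probe was well above background throughout the 4 arrays of any group, which 8 of the 10 genes met. IL1A and IL1B met it only through treated groups, so that a difference from NT was fixed in part by that filter.

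**Figure D1:**
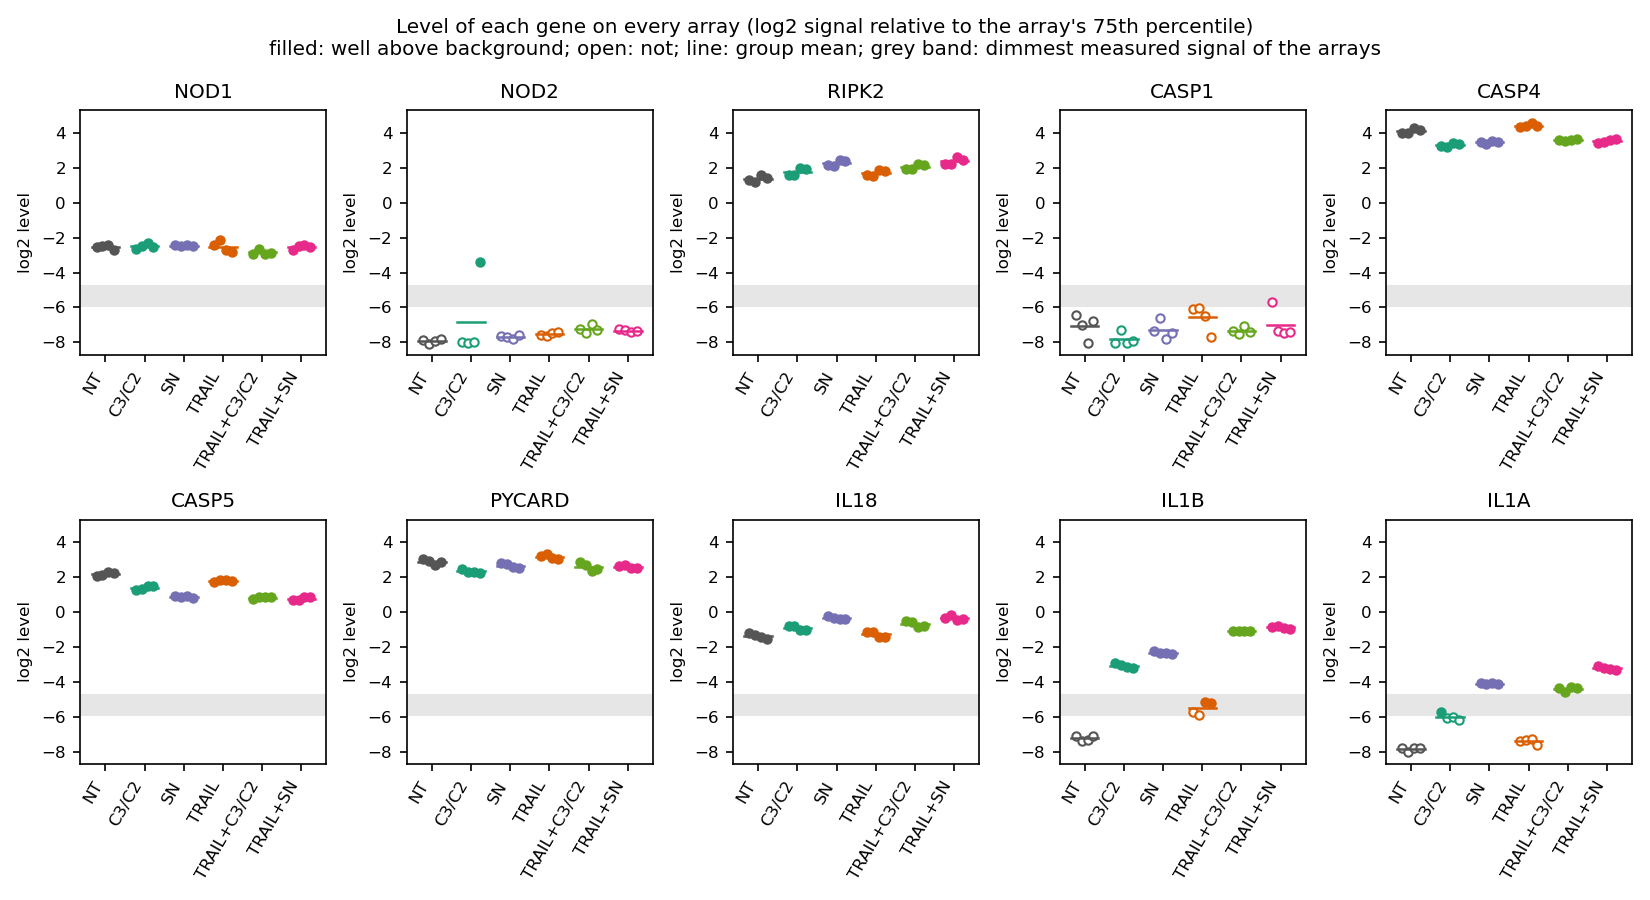
Each panel is 1 gene, the vertical axis is the log2 level relative to the array's 75th percentile, and each point is 1 of 4 arrays per group (filled where well above background, open where not, with a line at the group mean); the grey band spans the dimmest measured signal of the arrays, -5.89 to -4.75. IL1B and IL1A climb from below the band in NT to -0.88 and -3.21 on average in TRAIL+SN, CASP5 steps down from 2.18 to 0.78, and NOD1 stays between -2.92 and -2.12.

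IL1B rose in all 5 treated groups and was the only 1 of these genes called in every comparison with NT. A gene was called where its fold change was 2 or more and its adjusted p was under 0.05 (limma over all 24 arrays, Benjamini-Hochberg over 20703 genes). IL1B levels in NT were -7.08, -7.38, -7.35 and -7.10, none well above background. In TRAIL they were -5.71, -5.89, -5.15 and -5.20, and only the last 2 of these arrays were well above background. In C3/C2 they were -2.92, -3.02, -3.14 and -3.19. The C3/C2 and TRAIL arrays all lay above every NT array. In SN the levels were -2.25, -2.32, -2.33 and -2.42. In TRAIL+C3/C2 they were -1.06, -1.08, -1.08 and -1.09, the tightest group of any of the 8 genes tested (SD 0.01, n = 4). In TRAIL+SN they were -0.85, -0.79, -0.92 and -0.95. The 6 groups did not overlap. NT was lowest, followed upward by TRAIL, by C3/C2, by SN and by TRAIL+C3/C2, with TRAIL+SN on top.

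Against the dimmest signal measured in NT, IL1B was at least 6.30-fold higher in C3/C2, at least 10.5-fold in SN, at least 25.0-fold in TRAIL+C3/C2 and at least 28.7-fold in TRAIL+SN. These are lower bounds, formed from the treated mean and, on each NT array, the higher of the probe's own signal and the lowest signal among probes well above background. For TRAIL the bound was 1.18-fold, with 2 of 4 arrays well above background. The log2 differences as fitted were 1.74 with TRAIL, 4.16 with C3/C2, 4.90 with SN, and 6.15 and 6.35 with TRAIL+C3/C2 and TRAIL+SN, each with SE 0.12 and adjusted p of 1.84e-09 or less in limma. With normexp background correction, which lifts dim spots, the TRAIL difference was 0.58 and was not called, and the TRAIL+SN difference was 3.00. The 60-base probe lay at chr2:113587429-113587488 on the minus strand (hg19, from the array files), and its 10 spots on an array had an SD between 0.058 and 0.67 on the log2 scale.

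IL1A rose in C3/C2, SN and both co-treatments, and stood highest where the supernatant was present. Its NT levels were -7.81, -8.02, -7.79 and -7.78, and its TRAIL levels were -7.40, -7.30, -7.30 and -7.61, none of them well above background. In C3/C2 the levels were -5.70, -6.09, -6.03 and -6.21, and only the first was well above background. Those 3 groups thus gave little measured IL1A signal. In SN the levels were -4.07, -4.11, -4.08 and -4.10. In TRAIL+C3/C2 they were -4.36, -4.60, -4.30 and -4.35, and in TRAIL+SN -3.07, -3.18, -3.28 and -3.33. The groups did not overlap, and SN, without TRAIL, lay above TRAIL+C3/C2.

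IL1A was at least 3.09-fold higher in SN than in NT, at least 2.50-fold in TRAIL+C3/C2 and at least 5.69-fold in TRAIL+SN. Against TRAIL alone the co-treatments were at least 2.04-fold and 4.64-fold higher. The fitted log2 differences from NT were 1.84 (C3/C2), 3.76 (SN), 0.45 (TRAIL, under the 2-fold minimum, adjusted p = 0.00118 in limma), 3.45 (TRAIL+C3/C2) and 4.64 (TRAIL+SN), each with SE 0.10. No bound could be given for C3/C2, whose mean of -6.01 was under the NT floor of -5.72. With normexp background correction the C3/C2 difference was 0.32 and the SN difference 0.96, and neither was called. The probe lay at chr2:113532362-113532421 on the minus strand (hg19), and its 10 spots had SDs of 0.10 to 0.45.

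IL18, the cytokine measured on every array, rose by far less than IL1B. Its NT levels were -1.20, -1.32, -1.42 and -1.54, and its TRAIL levels -1.12, -1.12, -1.40 and -1.45. These 2 groups overlapped, with a difference of 0.10 and a 95% interval of -0.11 to 0.30. In C3/C2 the levels were -0.78, -0.78, -1.001 and -1.03, and in TRAIL+C3/C2 -0.53, -0.56, -0.83 and -0.79. In SN they were -0.23, -0.31, -0.41 and -0.42, and in TRAIL+SN -0.33, -0.17, -0.46 and -0.41. All 4 of these groups lay above every NT array, and the last 2 overlapped each other.

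The IL18 difference from NT was 1.03 in SN and 1.03 in TRAIL+SN, 2.04-fold in each, with a 95% interval of 1.77-fold to 2.35-fold for each, and both were called. In C3/C2 it was 0.47 and in TRAIL+C3/C2 0.69, past the adjusted p (2.66e-04 and 2.33e-06, limma) and under 2-fold. Both IL18 calls stood close to the 2-fold minimum. The SN call was lost without NT replicate 4 (0.97) or SN replicate 1 (0.99), and the TRAIL+SN call without NT replicate 4 (0.97) or TRAIL+SN replicate 2 (0.97). Both calls were lost with normexp (0.90 and 0.93), with quantile normalization (0.96 and 0.95) and with the arrays scaled to their median (0.90 and 0.83). With scaling to the spiked-in control RNAs the SN difference was 1.10 and stayed called, the TRAIL+SN difference was 0.52 and was not, and that of TRAIL+C3/C2 was -0.01.

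NOD1, the receptor for peptidoglycan fragments carrying diaminopimelic acid, differed little between the groups. Its levels ran from -2.68 to -2.45 in NT, from -2.66 to -2.33 in C3/C2, from -2.50 to -2.42 in SN and from -2.80 to -2.12 in TRAIL. In TRAIL+SN they ran from -2.68 to -2.43, and in TRAIL+C3/C2 they were -2.91, -2.63, -2.92 and -2.90. The TRAIL+C3/C2 arrays lay at the low end, and 1 of them overlapped NT. The difference from NT there was -0.31 (SE 0.11, adjusted p = 0.019 in limma, under 2-fold). It was 0.04 with normexp correction and -1.01, past 2-fold, with scaling to the spiked-in controls. For TRAIL, C3/C2, SN and TRAIL+SN the differences were 0.02, 0.03, 0.08 and 0.00, and the widest 95% limits were -0.24 and 0.31.

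NOD2, the receptor for muramyl dipeptide, was not well above background on 23 of the 24 arrays, where its levels ran from -8.09 to -6.94. C3/C2 replicate 4 was the other array, at -3.37, against -8.03 to -7.96 on the other arrays of its group. That value came from 1 spot, and no other array repeated it. NOD2 was not tested. Fitted without the filter on dim probes, its difference between C3/C2 and NT was 1.10 (adjusted p = 0.221 in limma).

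RIPK2, the kinase shared by both receptors, had a higher mean in every treated group, and only TRAIL+SN passed 2-fold. NT levels were 1.32, 1.17, 1.60 and 1.42. In C3/C2 they were 1.62, 1.57, 1.98 and 1.93, in TRAIL 1.58, 1.52, 1.86 and 1.81. Both of these groups overlapped NT. In SN the levels were 2.18, 2.10, 2.46 and 2.38, in TRAIL+C3/C2 1.94, 1.93, 2.21 and 2.16, and in TRAIL+SN 2.24, 2.22, 2.63 and 2.44. These 3 groups lay above every NT array and overlapped among themselves.

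The RIPK2 differences from NT were 0.40 in C3/C2, 0.90 in SN, 0.31 in TRAIL (adjusted p = 0.0551 in limma, short of the threshold in this fit, which has no term for replicate number), 0.68 in TRAIL+C3/C2 and 1.01 in TRAIL+SN (2.01-fold, 95% interval 1.68 to 2.40, adjusted p = 2.74e-07). The TRAIL+SN call was lost when NT replicate 1 (0.99), NT replicate 2 (0.94), TRAIL+SN replicate 3 (0.92) or TRAIL+SN replicate 4 (0.99) was left out, and under each of the other scalings and normexp (0.50 to 0.93). With the spiked-in controls the TRAIL+C3/C2 difference was -0.02.

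CASP5, a sensor of lipopolysaccharide, fell in SN and both co-treatments. Its NT levels were 2.08, 2.11, 2.33 and 2.22, and its TRAIL levels 1.73, 1.83, 1.86 and 1.78. C3/C2 followed with 1.26, 1.32, 1.49 and 1.50. The 3 groups did not overlap. SN was at 0.90, 0.86, 0.91 and 0.83, TRAIL+C3/C2 at 0.74, 0.86, 0.87 and 0.88, and TRAIL+SN at 0.71, 0.68, 0.86 and 0.88. These last 3 groups overlapped one another and lay below all C3/C2 arrays.

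The CASP5 differences from NT were -1.31 in SN (2.48-fold lower), -1.35 in TRAIL+C3/C2 (2.55-fold lower) and -1.40 in TRAIL+SN (2.65-fold lower), each with SE 0.07, and adjusted p of 2.97e-13 or less in limma. These 3 calls held in all 18 alternative settings run for each, not all of which could have lost them. Dropping the minimum fold cannot lose a call, and the deposited normalized intensities repeat the scaling to the array median. With 1 probe well above background on all 24 arrays, the filter and the median over probes leave the CASP5 differences unchanged. In C3/C2 the difference was -0.79 and in TRAIL -0.39, past the adjusted p and under 2-fold. With the arrays scaled to their median the C3/C2 difference was -1.09 and was called. The probe lay at chr11:104868142-104868201 on the minus strand (hg19).

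CASP4, the related sensor, had lower means with C3/C2 and SN and a higher mean with TRAIL alone, always under 2-fold. Its NT levels were 3.99, 4.02, 4.28 and 4.18. The TRAIL levels were 4.36, 4.38, 4.58 and 4.38, above every NT array. C3/C2 was at 3.27, 3.22, 3.43 and 3.35, SN at 3.49, 3.34, 3.53 and 3.46, TRAIL+C3/C2 at 3.59, 3.54, 3.62 and 3.66, and TRAIL+SN at 3.41, 3.51, 3.60 and 3.66. All 4 of these groups lay below every NT array. The differences from NT were 0.31 with TRAIL, -0.80 with C3/C2, -0.66 with SN, and -0.52 and -0.57 with TRAIL+C3/C2 and TRAIL+SN, each with SE 0.07 and past the adjusted p. With the arrays scaled to their median the C3/C2 difference was -1.10, and with the spiked-in controls the co-treatment differences were -1.22 and -1.08, and these 3 passed 2-fold.

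PYCARD, the adaptor, differed less at its furthest than the other genes measured on all arrays except NOD1. Its NT levels were 3.02, 2.93, 2.69 and 2.90, its TRAIL levels 3.23, 3.32, 3.12 and 3.03, and its C3/C2 levels 2.50, 2.30, 2.28 and 2.26. TRAIL lay above and C3/C2 below all NT arrays. SN ran from 2.51 to 2.79, TRAIL+C3/C2 from 2.38 to 2.85 and TRAIL+SN from 2.53 to 2.69, and the first 2 of these overlapped NT. The differences from NT were 0.29, -0.55, -0.23, -0.30 and -0.29 in the order used for CASP4, each with SE 0.10. All passed the adjusted p (0.0427 or less in limma) and none passed 2-fold.

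CASP1, the caspase that cuts IL1B and IL18, stood well above background on 0 of the 24 arrays. Its levels ran from -8.04 to -5.69. They were -8.02 to -6.43 in NT, -8.04 to -7.28 in C3/C2 and -7.70 to -6.05 in TRAIL. CASP1 was not tested, and at this signal a difference in CASP1 was not detectable. The match of its probe on hg19 spanned 545 bases of chromosome 11, against the 60 bases of the probe itself.

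Of the 8 genes tested, IL1B and IL1A were called higher in C3/C2, and none was called lower. Over all 20703 genes tested 13.4% were called higher and 6.18% lower in that comparison. In SN, 3 genes were called higher (IL1B, IL1A and IL18) and 1 lower (CASP5), against 14.2% and 9.75% of all genes. In TRAIL, 1 was called higher (IL1B) and 0 lower, against 0.749% and 2.18%. In TRAIL+C3/C2, IL1B and IL1A were called higher and CASP5 lower, against 16.2% and 7.94%. In TRAIL+SN, 4 were called higher (IL1B, IL1A, IL18 and RIPK2) and CASP5 lower, against 16.1% and 10.1%. IL1B and IL1A passed the filter on dim probes only through treated groups, so their calls in these counts were fixed in part by it. For IL1A in C3/C2 no lower bound over NT could be given.

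The genes past the adjusted p at any fold numbered 5 of 8 in TRAIL beside 33.5% of all genes, 7 in C3/C2 beside 63%, 7 in SN beside 69.3%, 8 in TRAIL+C3/C2 beside 69.4% and 7 in TRAIL+SN beside 70.1%. Except for TRAIL most genes of the whole array passed too, so the counts say little about these genes in particular. The median log2 differences of the 8 genes, in that order, were 0.30, 0.21, 0.49, 0.19 and 0.50, beside 0.03, 0.08, -0.02, 0.10 and 0.04 over all genes. The medians include IL1B and IL1A, whose differences from NT were fixed in part by the filter on dim probes. The 5 comparisons share the 4 NT arrays. The plot of differences from NT sets the 8 genes side by side.

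**Figure D2:**
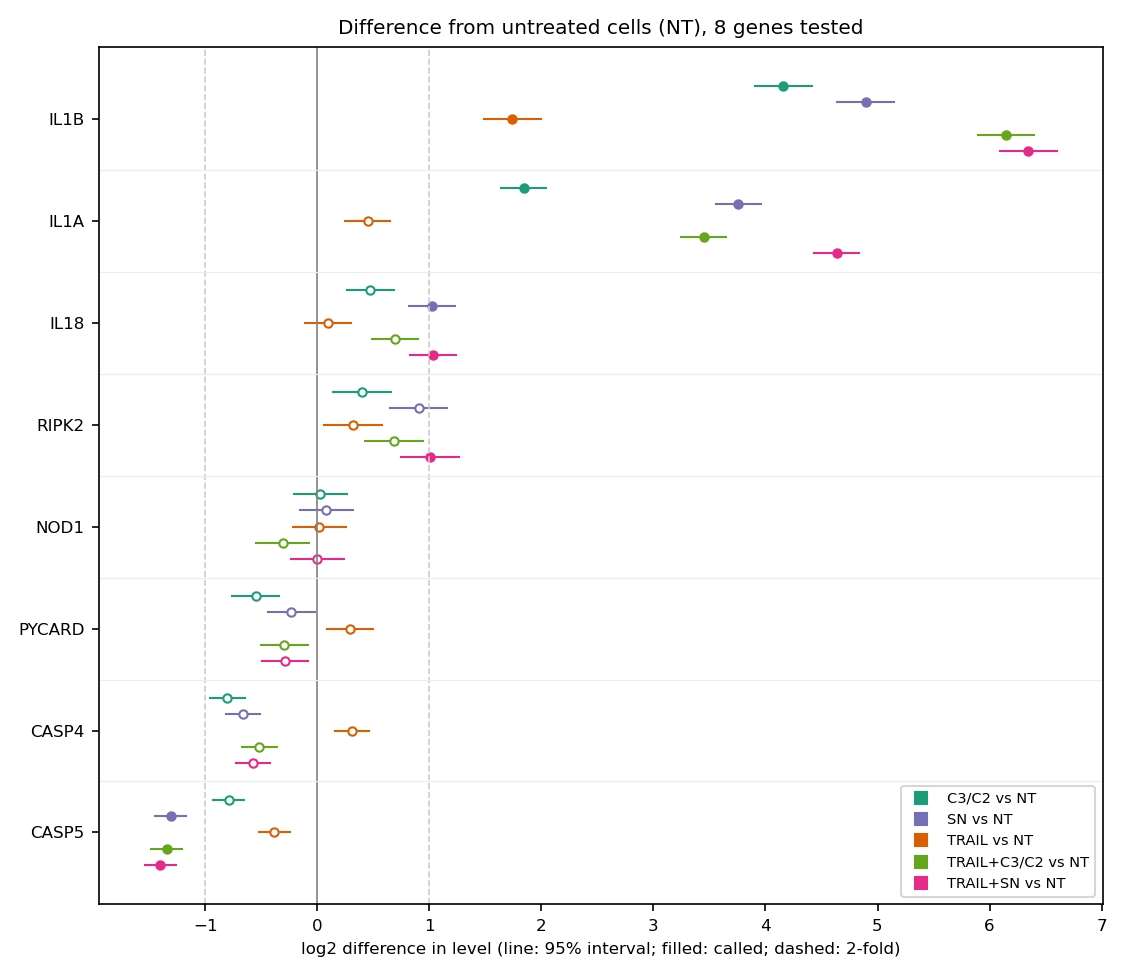
The horizontal axis is the log2 difference in level from NT for the 8 tested genes (points are fitted differences over 4 arrays per group, lines 95% intervals, filled points the called ones, dashed lines 2-fold). IL1B and IL1A stand far to the right, up to 6.35 and 4.64 in TRAIL+SN, CASP5 reaches -1.40, and the TRAIL points of CASP4 and PYCARD (0.31 and 0.29) lie on the other side of 0 from their other points.

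SN and C3/C2 were compared to see how far the 2 fatty acids, given at the amounts in the diluted supernatant, matched the whole supernatant, on arrays of different slides. IL1A was higher in SN by 1.92 (SE 0.10, adjusted p = 1.13e-11 in limma) and was the 1 gene of 8 called, against 5.69% of all genes called in either direction. Since 1 of 4 C3/C2 arrays measured IL1A well above background, the 3.77-fold ratio rests on dim spots, and with normexp correction it was 0.64 on the log2 scale and was not called. IL1B was higher in SN by 0.74, IL18 by 0.55, RIPK2 by 0.51 and PYCARD by 0.32, and CASP5 lower by 0.52. These 5 passed the adjusted p and not 2-fold. NOD1 (0.05, interval -0.18 to 0.29) and CASP4 (0.14, interval -0.01 to 0.29) did not pass it. With scaling to the spiked-in controls the IL1B difference was 1.01 and was called.

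With TRAIL present, on arrays of 1 slide, IL1A was higher in TRAIL+SN than in TRAIL+C3/C2 by 1.19 (2.28-fold, SE 0.10, adjusted p = 8.88e-09 in limma), measured well above background on all 8 arrays. It was the 1 gene of 8 called, against 3.53% of all genes, and with normexp correction the difference was 0.41 and was not called. IL18, RIPK2 and NOD1 were higher by 0.33, 0.32 and 0.31, past the adjusted p and under 2-fold. IL1B differed by 0.20 (interval -0.05 to 0.45), CASP5 by -0.06 (-0.20 to 0.08), CASP4 by -0.06 (-0.21 to 0.10) and PYCARD by 0.01 (-0.20 to 0.21).

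Whether each co-treatment exceeded the sum of its 2 treatments on the log2 scale was tested as an interaction. For TRAIL and C3/C2 the departure of IL1A was 1.16 (SE 0.14, adjusted p = 2.86e-05 in limma), the 1 gene of 8 called, against 0.657% of all genes. IL1A was not well above background in NT or TRAIL, nor on 3 of 4 C3/C2 arrays, so that 3 of the 4 terms of this value were set largely by signal near background. The value was 0.50 with normexp correction and 0.91 with the spiked-in controls, and neither was called. The departure of IL1B was 0.25 (interval -0.11 to 0.61), and none of the other 6 genes passed the adjusted p. For TRAIL and SN 0 of 8 genes were called by limma, against 3.1% of all genes. IL1A (0.43, adjusted p = 0.0262) and CASP5 (0.29, adjusted p = 0.03) passed the adjusted p there and not 2-fold, and CASP5 turned to -0.04 with the spiked-in controls. CASP4 (-0.22) and PYCARD (-0.35) had unadjusted 95% intervals below 0. The plot of both contrasts gives all 8 genes.

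**Figure D3:**
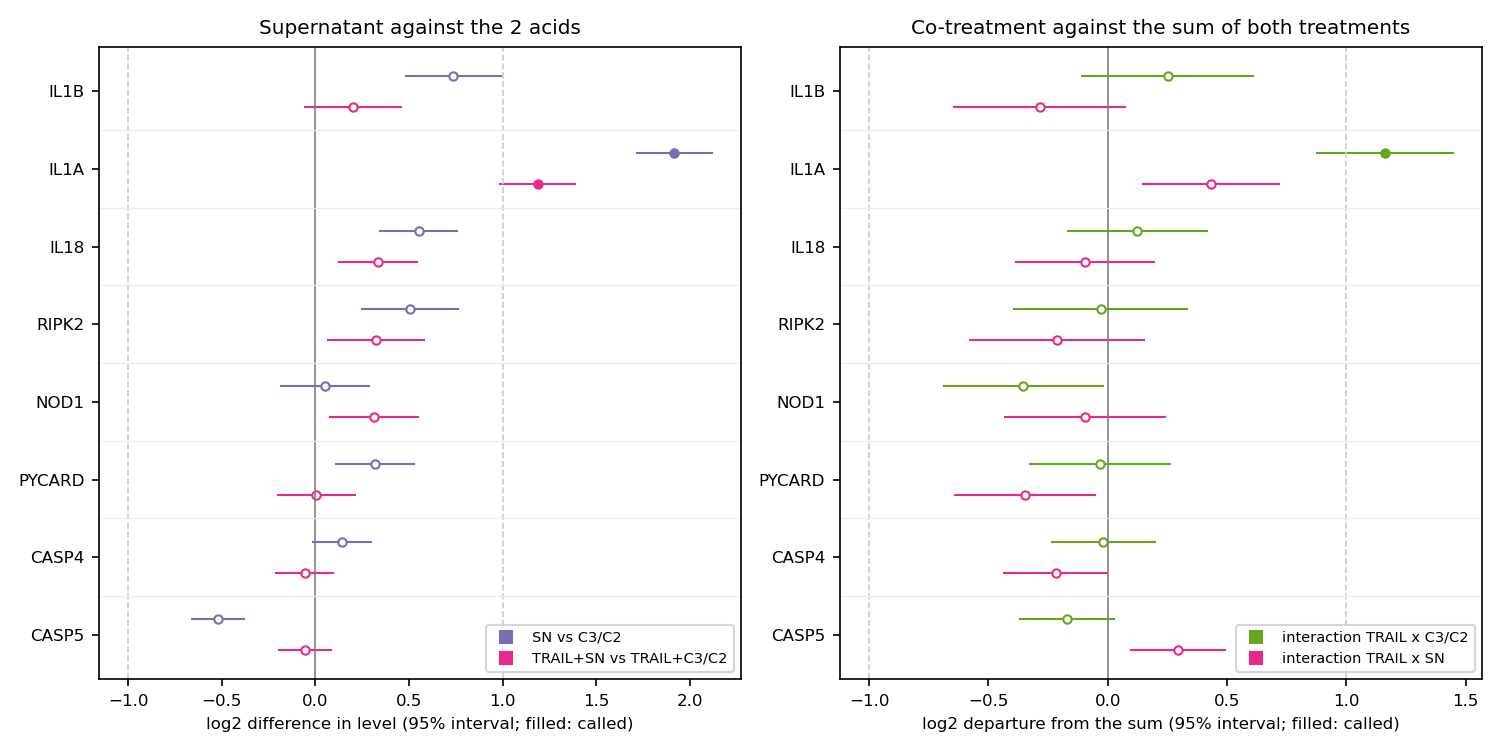
The left panel plots the log2 difference between supernatant and acids without TRAIL (SN vs C3/C2) and with it (TRAIL+SN vs TRAIL+C3/C2), and the right panel the departure of each co-treatment from the sum of its 2 treatments, for the 8 tested genes with 95% intervals (filled points called, dashed lines 2-fold). IL1A is the only filled gene, at 1.92 and 1.19 on the left and 1.16 on the right, and the IL1B points on the right (0.25 and -0.29) have intervals across 0.

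Within the groups, 3 genes separated the arrays labelled replicate 1 and 2 from those labelled 3 and 4, a pattern chosen after the values were seen. RIPK2 was higher on both arrays 3 and 4 than on both arrays 1 and 2 in 6 of 6 groups, by 0.25 to 0.37 between the means. IL18 was lower on arrays 3 and 4 in 6 of 6 groups, by 0.14 to 0.30, and PYCARD likewise in 6 of 6 groups, by 0.13 to 0.35. For RIPK2 and PYCARD these offsets were as large as some of the treatment differences above. CASP4 and CASP5 were higher on arrays 3 and 4 in 4 of 6 groups each, by 0.13 and 0.11 on average. The study describes 2 independent experiments done in duplicate, and the labels do not say which replicate numbers belong to 1 experiment. The part of an experiment in these offsets was not tested.

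**Figure D4:**
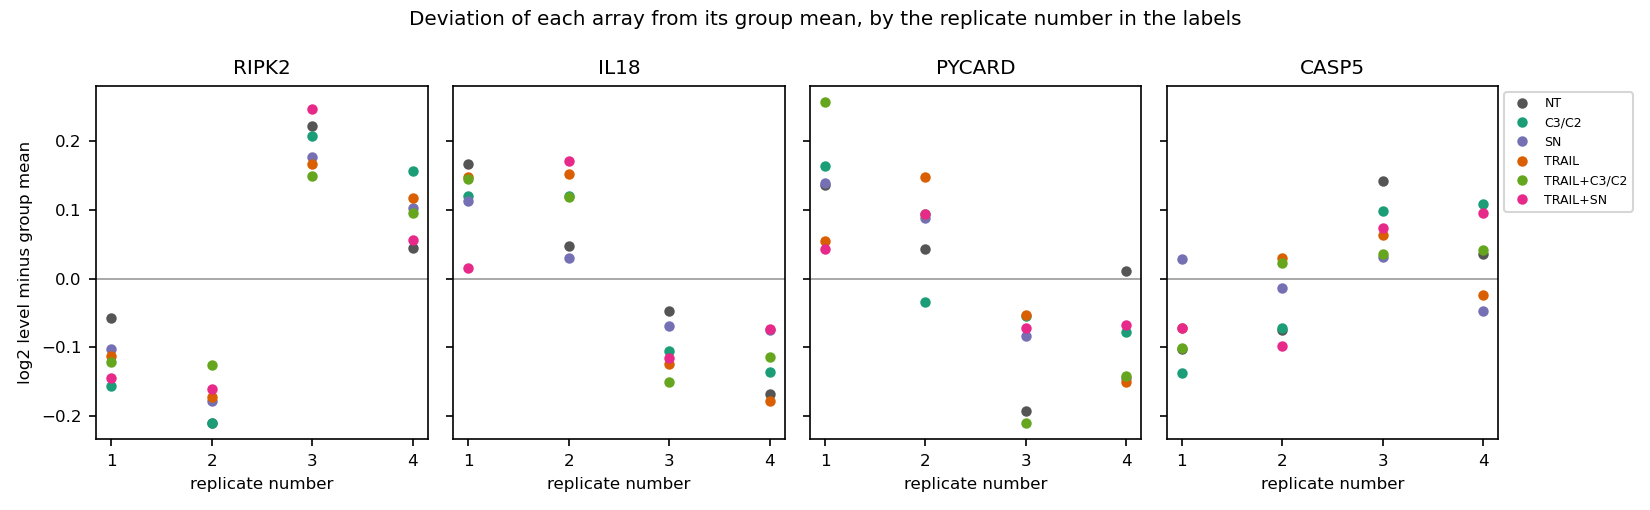
Each point is 1 array, the horizontal axis its replicate number in the labels and the vertical axis its log2 level minus the mean of its group, for 4 genes and the 6 groups in colour. RIPK2 points lie below 0 for replicates 1 and 2 and above 0 for 3 and 4 in all 6 groups, IL18 points the other way, PYCARD mostly so, and CASP5 with less separation.

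Other genes of the pathways were counted from 4 lists. Over all 20703 genes tested, 6.18% were called lower in C3/C2, 9.75% in SN, 7.94% in TRAIL+C3/C2 and 10.1% in TRAIL+SN. Of 17 NLR and other inflammasome sensors 8 were tested, and 3 of them fell in C3/C2, SN and both co-treatments: NLRP3, the best-known inflammasome sensor, NAIP, a sensor of bacterial flagellin, and NLRX1, a mitochondrial member of the family. NLRP3 differed from NT by -2.23 with C3/C2, -2.37 with SN, and -1.54 and -1.44 with TRAIL+C3/C2 and TRAIL+SN. Of the 4 SN arrays 1 held NLRP3 well above background. In the same order the NLRX1 differences were -1.56, -1.08, -1.70 and -1.46, and those of NAIP -1.16, -1.24, -1.40 and -1.04. NLRC5, a regulator of MHC class I genes, was called higher in TRAIL+SN by 1.03. In TRAIL 0 of the 8 passed even the adjusted p, beside 33.5% of all genes, and limma called none. With normexp correction the NLRP3, NAIP and NLRC5 calls were lost, and NLRC5 was lost also under every other scaling, while the 4 NLRX1 calls held except SN under the spiked-in controls (-0.999). NAIP has 3 probes, and with the median over probes its C3/C2 and TRAIL+C3/C2 differences were -0.96 and -0.95. The remaining 9 sensors, among them NLRC4, NLRP6 and AIM2, were not tested because they were dim.

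Of 15 inflammasome partners and regulators 11 were tested. P2RX7, the ATP-gated channel that triggers NLRP3, was called higher in the same 4 groups. Its signal was not well above background in NT or TRAIL. It passed the filter on dim probes only through treated groups, so these calls were fixed in part by that filter. It was at least 5.05-fold higher in C3/C2, 3.77-fold in SN, 4.51-fold in TRAIL+C3/C2 and 3.43-fold in TRAIL+SN. The others called moved down. CARD8, a sensor and CASP1 partner, fell in SN (-1.33), TRAIL+C3/C2 (-1.09) and TRAIL+SN (-1.41). The TRAIL+C3/C2 call was lost with normexp (-0.79). SUGT1, a co-chaperone of NLR proteins, fell in the same 3 groups, with differences of -1.07 (-0.997 and not called with the spiked-in controls), -1.21 and -1.13. TXNIP, an NLRP3-binding redox protein, fell in SN (-1.92) and TRAIL+SN (-1.87), as did CARD6 (-2.15 and -1.94). TXNIP and CARD6 were also called lower in SN than in C3/C2 (-2.32 and -1.75) and in TRAIL+SN than in TRAIL+C3/C2 (-2.13 and -1.63), whereas their C3/C2 differences from NT were 0.40 and -0.39.

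Of 23 NOD signalling partners 22 were tested, and 2 were called higher in each of the 5 comparisons with NT: BIRC3, a ubiquitin ligase of the RIPK2 complex, and TNFAIP3 (A20), a deubiquitinase that restrains NF-kB signalling. Over all genes tested, 13.4% were called higher in C3/C2, 14.2% in SN, 0.749% in TRAIL, 16.2% in TRAIL+C3/C2 and 16.1% in TRAIL+SN. Except in TRAIL, 2 of 22 is a smaller share than these. BIRC3 differed from NT by 3.36 with TRAIL, 1.90 with C3/C2, 2.81 with SN, and 5.02 and 5.62 with TRAIL+C3/C2 and TRAIL+SN. TNFAIP3 differed by 2.89, 1.72, 2.01, 5.22 and 5.54 in that order. Unlike IL1B, both had higher means in TRAIL than in C3/C2 or SN, a difference that was not tested. CARD9, an adaptor of NOD2 signalling, fell in all groups but TRAIL, with log2 differences of -1.74 with C3/C2, -1.54 with SN, and -1.70 and -1.30 with TRAIL+C3/C2 and TRAIL+SN. TRAF3, a signalling adaptor of the same pathway, fell in SN (-1.12), a call lost with normexp (-0.56).

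Of 23 genes of the IL1 family, its receptors and their signalling 16 were tested. IL1RAP, the co-receptor for IL1, rose by 1.88 in C3/C2, 2.99 in SN, 2.00 in TRAIL+C3/C2 and 3.04 in TRAIL+SN, and was higher in SN than in C3/C2 by 1.10. With the median over probes these 5 values were 1.07, 2.04, 1.12, 2.17 and 0.96, and the last was not called. IRAK2, a kinase of the receptor complex, rose by 1.10 in SN, 1.36 in TRAIL, 1.64 in TRAIL+C3/C2 and 2.12 in TRAIL+SN. With the arrays scaled to their median IRAK2 in SN was not called (0.97), nor with the spiked-in controls in TRAIL+C3/C2 (0.94). IL18BP, the secreted inhibitor of IL18, rose by 1.14 in SN, 1.13 in TRAIL+C3/C2 and 1.35 in TRAIL+SN. IRAK4, the kinase next to the receptor adaptor, fell in C3/C2 (-1.06), SN (-1.004) and TRAIL+SN (-1.55). With normexp the IRAK4 calls were lost (-0.69, -0.54 and -0.58), as were those of IL18BP in SN (0.73) and TRAIL+C3/C2 (0.92). With the spiked-in controls IRAK4 in SN (-0.93) and IL18BP in TRAIL+C3/C2 (0.43) and TRAIL+SN (0.84) were not called. IL18RAP was called lower in TRAIL (-1.498) and TRAIL+C3/C2 (-1.17) and IL33 in TRAIL+SN (-1.38), on dim probes, and with normexp the last 2 of these turned to 0.22 and 0.17. The heat map of the 4 lists shows these genes.

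**Figure D5:**
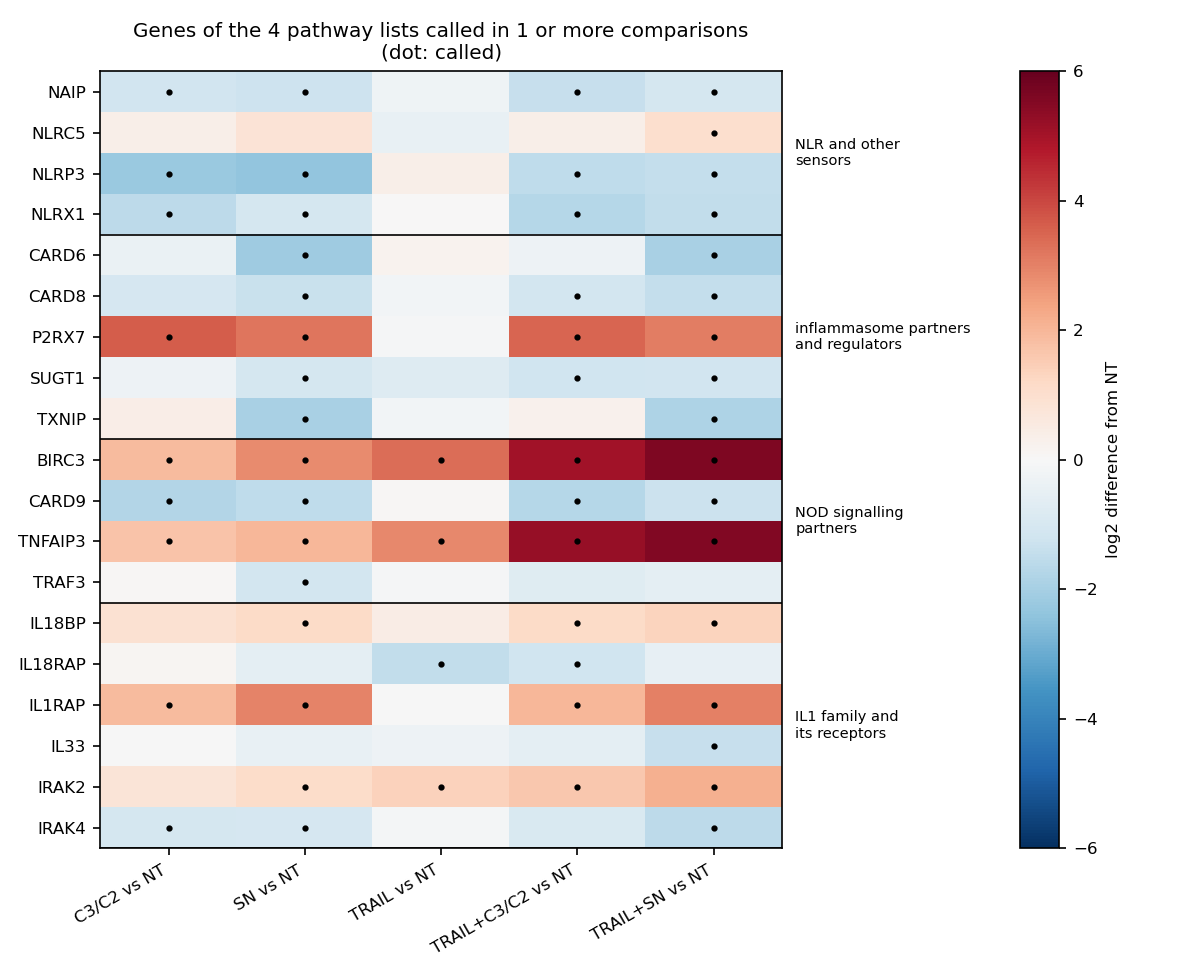
Rows are the 19 genes of the 4 lists that were called in at least 1 comparison with NT, columns the 5 comparisons, colour the log2 difference from NT (scale -6 to 6) and dots the called differences. TNFAIP3 and BIRC3 are the darkest, at 5.54 and 5.62 in TRAIL+SN, NLRP3, NLRX1 and NAIP carry dots in every column but TRAIL, and TXNIP and CARD6 carry them in the SN and TRAIL+SN columns only.

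All 13 of 13 colon epithelial markers, among them EPCAM, KRT20 and VIL1, were well above background on all 24 arrays. Genes used as markers of other cells also moved with these treatments. The fibroblast collagen COL1A1 was not well above background in NT (-7.12 to -5.99) or TRAIL (-7.56 to -5.43). It ran from -1.48 to -1.29 in C3/C2, from -0.69 to -0.38 in SN, from -1.60 to -1.18 in TRAIL+C3/C2 and from -0.67 to 0.11 in TRAIL+SN, at least 19.7-fold above NT in C3/C2 and at least 42.3-fold in TRAIL+SN. The fibroblast markers COL1A2 and DCN were well above background on 0 arrays and PDGFRB on 1. The log2 of the summed level of the 7 tested of 9 white blood cell and macrophage markers ran from 0.73 to 1.09 in NT and from 0.79 to 1.25 in TRAIL. With C3/C2 it ran from 1.70 to 1.98 and with SN from 1.86 to 2.27, and in the co-treatments from 1.71 to 2.06 (TRAIL+C3/C2) and from 1.87 to 2.28 (TRAIL+SN). CD14, the brightest of these markers, stood at 0.75 in NT and 1.91 in SN. The median difference of the 7 was -0.12 in SN and -0.11 in TRAIL+SN, since PTPRC, ITGAM, CYBB and SPI1 had lower means than NT in both (-0.12, -0.49, -0.81 and -0.13 in SN, none called). CD14 and CSF1R were called higher in SN and TRAIL+SN, PTPRC was not called in any comparison with NT, and CD163 was well above background on 0 arrays. CSF1R and COL1A1 passed the filter on dim probes only through treated groups, so their differences from NT were fixed in part by it. With normexp the CSF1R calls in SN and TRAIL+SN were lost (0.68 and 0.96), and with the spiked-in controls that of CD14 in TRAIL+SN (0.72). The sum of the 3 endothelial markers ran from -2.33 to -2.02 in NT and from -2.23 to -1.97 in TRAIL. With C3/C2 it ran from -1.61 to -1.21 and with SN from -2.22 to -1.66, and in the co-treatments from -1.47 to -1.28 (TRAIL+C3/C2) and from -2.03 to -1.58 (TRAIL+SN). PECAM1 was the endothelial marker called higher, in all groups but TRAIL. With normexp its calls were lost in C3/C2 (0.96), SN (0.74) and TRAIL+SN (0.99), and the last also with the spiked-in controls (0.86). Their part in the IL1A and IL1B differences was not tested.

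The genes whose levels ran most like those of the called genes over the 24 arrays were found by Pearson correlation among 15498 named genes, as a description in which the arrays share treatments and slides. Closest to IL1B were MAP3K14 (0.994), CEBPB (0.994) and DAPK3 (0.992). Closest to IL1A were SPACA4 (0.988), FOS (0.985) and SNORA17 (0.985). IL18 was closest to KRT80 (0.984), TTC9B (0.983) and C17orf76 (0.975), RIPK2 to SARS (0.963), DNAJC1 (0.956) and PUS3 (0.955), and CASP5 to TUBBP5 (0.991), NCBP2 (0.980) and WDR82 (0.978). Among the genes themselves, CASP5 ran opposite to IL1B, IL1A and IL18, with r of -0.970, -0.965 and -0.930 over the 24 arrays.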

How the data were processed

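HT29 RNA from 24 samples was hybridised to single-colour Agilent arrays and read with Agilent Feature Extraction 10.7.3.1 per the file headers. The deposited scanner files give, for each spot, an intensity that the authors' software had background-subtracted. A deposited table of the whole series holds normalized intensities, which on these files equalled the scanner's processed intensity divided by the array's median (largest relative spread 1.69e-05). Its 24 columns of a second kind, 1 per sample, were not used. The probe positions are on hg19 per the file headers. The members and gene lists were chosen with earlier results of these data known.

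Between 190 and 315 spots of an array carried an outlier flag and were not used. The log2 intensity minus the log2 of the array's 75th percentile was averaged over the spots of a probe. A probe was kept where at least 0.5 of its spots were well above background on all 4 arrays of 1 group (27957 of 50599 probes), and a gene was represented by its brightest kept probe (20703 genes). The 6 group means came from a limma 3.58.1 fit (R 4.3.3, 18 residual degrees of freedom, empirical Bayes) and adjusted by Benjamini-Hochberg over all genes. A call needed a fold change of 2 and an adjusted p under 0.05. The methods' software for calling genes was not used here. The median SE of a difference from NT was 0.11. The script was tested on simulated data.

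The alternatives were normexp background correction (offset 50), scaling to the array median, the deposited table, quantile normalization, scaling to 7 of 10 spike-in probes measured on every array, no filter on dim probes, the median over probes, no minimum fold, blocks for replicate number and slide, and leaving out each array. Up to 4 called genes per list and comparison with the largest difference are named, and the 3 genes most like each called member. RefSeq sequences and accessions (GRCh38.p14) matched 10 of 10 members by accession and 7 by promoter, with chromosome 8 (RIPK2) left out of the promoter search. Figures were drawn with matplotlib 3.10.9.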

Additional observations from a re-analysis of the deposited data

Results flagged for a closer look

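In 7 of 60 sets of 4 arrays (10 genes in 6 groups) 1 array stood far from the other 3, where chance gives about 1 in 20. NOD2 on C3/C2 replicate 4 was at -3.37, against -8.03 to -7.96. CASP1, not well above background on any array, was at -5.69 on TRAIL+SN replicate 1, against -7.48 to -7.35, and at -7.28 on C3/C2 replicate 2, against -8.04 to -7.95. NOD1 was at -2.63 on TRAIL+C3/C2 replicate 2, against -2.92 to -2.90. CASP4 was at 4.58 on TRAIL replicate 3, against 4.36 to 4.38. CASP5 was at 0.74 on TRAIL+C3/C2 replicate 1, against 0.86 to 0.88. IL1A, not well above background in NT, was at -8.02 on NT replicate 2, against -7.81 to -7.78.

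The fitted interaction of TRAIL and C3/C2 for IL1A was 1.16 on the log2 scale (SE 0.14, adjusted p = 2.86e-05 in limma). NT and TRAIL held no array with IL1A well above background, and C3/C2 held 1 of 4, so that 3 of its 4 terms lie near background. The call was lost with normexp (0.50) and with spike-in scaling (0.91), and a difference in the effect of C3/C2 is not established by it.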

How the results depend on the processing

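None of the called differences of the 8 tested genes changed sign under the alternatives run. Of their differences that were not called, 4 did: with spike-in scaling IL18 and RIPK2 in TRAIL+C3/C2 (to -0.01 and -0.02) and CASP5 in the interaction of TRAIL and SN (to -0.04), and with normexp NOD1 in TRAIL+C3/C2 (to 0.04). In the pathway lists 2 called differences turned with normexp, those of IL18RAP in TRAIL+C3/C2 (to 0.22) and IL33 in TRAIL+SN (to 0.17). The count of called genes among the 8 tested moved as follows. With normexp background correction it was 1 in C3/C2, 2 in SN, 0 in TRAIL and 3 in TRAIL+SN against NT, 0 for SN against C3/C2, 0 for TRAIL+SN against TRAIL+C3/C2 and 0 for the interaction of TRAIL and C3/C2. With array median scaling and with the deposited table it was 4 in C3/C2, 3 in SN and 3 in TRAIL+SN, and with quantile normalization 3 in SN and 3 in TRAIL+SN. With spike-in scaling it was 5 in TRAIL+C3/C2, 4 in TRAIL+SN (IL18 and RIPK2 lost, CASP4 gained), 2 for SN against C3/C2 and 0 for the interaction of TRAIL and C3/C2. With no minimum fold it was 7 in C3/C2, 7 in SN, 5 in TRAIL, 8 in TRAIL+C3/C2, 7 in TRAIL+SN, 6 for SN against C3/C2, 4 for TRAIL+SN against TRAIL+C3/C2 and 2 for the interaction of TRAIL and SN. The causes were not tested. These scalings moved the median of all genes: the median scaling by -0.30 in C3/C2 and -0.35 in TRAIL+C3/C2, and the spike-in scaling by -0.70 in TRAIL+C3/C2 and -0.51 in TRAIL+SN.

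Leaving out 1 array at a time gave 3 to 4 calls in SN and 4 to 5 in TRAIL+SN, through IL18 and RIPK2, and left the other counts as they were. The slide as a block, or slide 2 alone, for C3/C2 against NT changed no call (8 of 8 the same), nor did the slide as a random block (correlation 0.026). Removing the filter on dim probes or taking the median over probes changed none of 72 calls. Each of these genes has 1 probe, so neither setting could move a log2 difference, only its adjusted p. With the replicate block 72 of 72 calls were the same, with 5 calls in TRAIL+SN. For the log2 difference of RIPK2, TRAIL vs NT (0.31), the adjusted p was 6.21e-06 with that block, against 0.0551 without it and 0.0292 to 0.738 over the other alternatives. Arrays with the same replicate number deviated together at r above 0.1 in 57 of 60 pairs (lowest 0.062), and 21 of 24 arrays correlated best with their own number. Pairs of different numbers within 1 and 2, or within 3 and 4, did so in 42 of 60 (median r 0.14). Pairs across these 2 sets did so in 0 of 120 (median r -0.17). These are hints from the data, and no label ties a number to 1 of the study's 2 experiments, so the numbers were not taken as pairs. For the pathway and marker lists 61 of 95 calls were kept with normexp, 87 with median scaling, 90 with quantile, 79 with spike-in scaling and 92 with the median over probes. Dim signal limits NOD2, CASP1, and IL1A and IL1B in NT.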
